A study of Mus musculus with 2 samples.

Results

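Zeb2 encodes a zinc-finger and homeobox transcription factor, and the chromosome 2 interval assigned to it here held 10 of the 10870 c-Fos peaks in the deposited list. The peaks were those with a centre between 44600001 and 45300000 on chromosome 2 of the mouse build mm9, and the chromosome as a whole held 902. The interval was chosen from the measured peak positions, because it contains 6 peaks in close succession from 44807957 to 44833829. Peak number and spacing in that run are therefore descriptions of what was selected and carry no test. Such a run is defined as a set of peaks in which each centre lies within 10 kb of the next.

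The cells were mouse bone marrow mesenchymal stem cells, stromal cells able to form bone, cartilage and fat. They carried a p53 knockout and expressed c-Fos, and they had been kept for under 20 passages. For chromatin immunoprecipitation and sequencing (ChIP-seq), 50000000 cells were fixed and 10 ug of an antibody against c-Fos was used. The specificity of the antibody was not examined here. By its title, the study concerned c-Fos and Sox9 in a bone tumour that forms cartilage. There was 1 library from this ChIP and 1 input library of the same cells, so every cell measured was p53-deficient and expressed c-Fos. No sample without c-Fos is among the labels, and the means by which c-Fos was introduced is not stated there. With a single ChIP library there is no replicate error, and the reads behind each peak were not used here, so depth is unknown.

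Zeb2, also known as Sip1, binds paired E-box sequences and acts mostly as a repressor. It is known for silencing the epithelial adhesion gene Cdh1 during the change of epithelial cells into mesenchymal ones, for its contacts with Smad proteins of the TGF-beta pathway, and for its part in neural crest development. c-Fos and a Jun protein together make up AP-1, a dimeric factor that often acts from sites far from gene starts. In the mouse gene table of the RefSeq assembly GRCm38.p6, the protein-coding neighbours of Zeb2 were Gtdc1, a glycosyltransferase-like gene, on one side and Acvr2a, an activin receptor, on the other. The table also lists Zeb2os, a long noncoding RNA gene that overlaps Zeb2. Positions were not converted between builds, so 0 of the 10 peaks were joined to a gene. Whether a peak lay in Zeb2, at one of its start sites or beyond its ends was not analysed here, and the name of the locus rests on the rule that chose it.

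Zeb2 has 4 promoter windows in the RefSeq promoter table, each from 250 bases before to 50 bases after a transcription start, on the minus strand of chromosome 2. They were searched for TGANTCA, the 7-base AP-1 sequence with any base in the middle, which reads the same on both strands apart from that base. The window of the most downstream start held 2 matches and the other 3 windows held 0. Among those 3, the windows of the 2 middle starts overlapped in most of their bases, so they are not separate sequences. Matches to TGACGTCA, a related 8-base sequence, numbered 0 in all 4. The 2 windows below are shown because they are the most upstream start, with no match, and the only Zeb2 start with matches. They are printed 5′ to 3′ from GRCm38.p6, with the AP-1 matches in capitals.
Zeb2 most upstream start: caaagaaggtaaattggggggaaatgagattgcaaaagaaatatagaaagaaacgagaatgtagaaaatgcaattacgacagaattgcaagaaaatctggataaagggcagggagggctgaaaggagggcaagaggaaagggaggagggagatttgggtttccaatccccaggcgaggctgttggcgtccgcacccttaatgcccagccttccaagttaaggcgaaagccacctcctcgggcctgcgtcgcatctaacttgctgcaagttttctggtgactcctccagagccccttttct
Zeb2 most downstream start: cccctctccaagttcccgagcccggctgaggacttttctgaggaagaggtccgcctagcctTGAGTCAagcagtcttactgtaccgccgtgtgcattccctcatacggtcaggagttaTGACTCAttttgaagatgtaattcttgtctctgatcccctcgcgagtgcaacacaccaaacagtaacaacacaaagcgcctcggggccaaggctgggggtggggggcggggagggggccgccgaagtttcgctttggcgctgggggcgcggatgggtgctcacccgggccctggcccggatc

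The first match, TGAGTCA, began 189 bases before the start, and TGACTCA began 132 bases before it, 57 bases further on. Of the 32851 promoter windows of this length in the table, 2565 (7.81%) held at least 1 TGANTCA and 151 (0.460%) held at least 2. These shares are per window and not per gene. Zeb2 had 4 windows, and the one with matches was picked after the search. A match describes letters in a window. Since the peaks are on mm9, no c-Fos peak was assigned to either window, and the sequence under the 10 peaks was not analysed here.

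The 6 peaks of the run lay within 25.9 kb, 3.70% of the 700 kb interval. From the low to the high coordinate, the first peak (chr2:44807957-44808989, mm9) scored 125.15 and was 1033 bp wide. The score is the authors' own value for each peak, on a scale the file does not state. It is used only within this list, to order peaks, compare medians, set cut-offs and pick out peaks of similar score. The second peak (chr2:44811619-44812546) had the highest score of the locus, 251.23, with a width of 928 bp. The third (chr2:44816519-44817436) scored 148.21 and was 918 bp wide. The highest score of the locus thus stood between lower ones, with neighbouring centres less than 5 kb apart.

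The fourth peak (chr2:44821240-44822021) was the lowest and the narrowest of the locus, scoring 71.26 at 782 bp. The fifth (chr2:44824540-44825576) scored 172.95 over 1037 bp. The sixth (chr2:44832424-44833829) scored 170.24 and was the widest of the locus at 1406 bp. The fifth and the sixth thus had nearly equal scores but differed in width. Within the run the median score was 159, against 101 over the whole list, and 5 of the 6 peaks lay above that list median. The exception was the fourth.

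**Figure D1:**
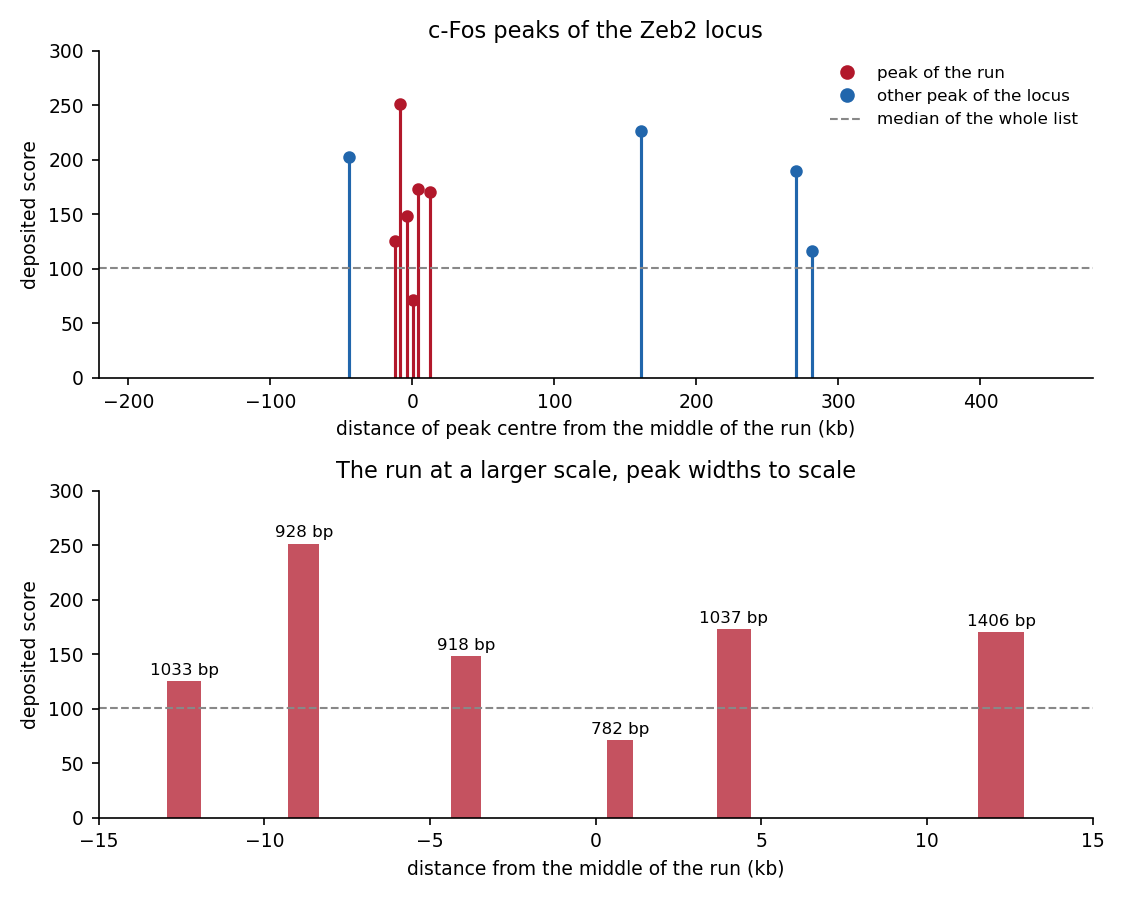
Position (kb from the middle of the run) and deposited score of the 10 c-Fos peaks of the Zeb2 locus, with the run in red and the other 4 peaks in blue (top), and the run alone with bars as wide as the peaks and their widths in bp (bottom). The dashed line is the median score of the whole list, 101; of the 10 peaks only the fourth of the run, at 71.26, lies below it.

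The distances between neighbouring centres in the run were 3.61, 4.90, 4.65, 3.43 and 8.07 kb from the first to the last. The first 4 of the 5 distances were under 5 kb, and the longest separated the sixth peak from the fifth. Their median was 4.65 kb, close to the 4.53 kb of the 1654 neighbouring pairs within 10 kb on chromosomes 1 to 19 and X (quartiles 2.50 and 7.03 kb). Between all neighbours on chromosome 2 the median distance was 63.6 kb. The 10 kb limit bounds the run and the close pairs but not all neighbours, so both comparisons follow in part from that limit. Measured from edge to edge, the stretches between the peaks were 2.63, 3.97, 3.80, 2.52 and 6.85 kb. The peaks themselves covered 6.10 kb, or 23.6%, of the run, so most of it lay outside any listed peak.

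The remaining 4 peaks were spread over the rest of the locus, 1 before the run and 3 after it. The one before (chr2:44775569-44776665) scored 202.56 over 1097 bp, with its centre 32.4 kb from the first peak of the run. After the run came 149 kb without a peak centre, and then a peak (chr2:44981618-44982626) that scored 226.48 over 1009 bp. Both scored above every peak of the run except the second.

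The last 2 peaks of the locus formed a looser pair. The first of them (chr2:45090159-45091248) scored 189.38 over 1090 bp and lay 109 kb from the peak before it. Its partner (chr2:45101723-45102748) scored 116.45 over 1026 bp, with 11.5 kb between their centres, just beyond the 10 kb that defines a run. The pair that came nearest to that limit from within was made up of the fifth and the sixth of the run, at 8.07 kb.

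Scores in the run and outside it overlapped. The run spanned 71.26 to 251.23 with a median of 159, and the other 4 peaks spanned 116.45 to 226.48 with a median of 196. Of those 4, 3 scored above the median of the run. Their widths lay in a narrow band of 1009 to 1097 bp, inside the 782 to 1406 bp of the run. Over all 10 peaks the median score was 172 and the median width 1030 bp, against 104 and 956 bp over chromosome 2 and 101 and 949 bp over the whole list. The locus was proposed with this list in view and peaks are not replicates, so these medians were set side by side without a test.

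A score of at least 100 was reached by 9 of the 10 locus peaks, whereas 50.7% of the whole list reached it. At least 200 was reached by 3 of the 10, against 18.6% of the list, and of these 3 only 1 lay in the run. By score the 10 peaks stood between rank 115 and rank 676 of the 902 on chromosome 2. The highest, the second of the run, scored above 87.9% of the list, and the lowest, the fourth, above 27.9%. No peak of the locus was therefore among the highest of the chromosome, where scores reached 930.74. A neighbouring centre within 10 kb was found for 6 of the 10, the run itself, against 27.3% of peaks on chromosomes 1 to 19 and X. This last count follows from how the locus was chosen.

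List peaks of higher score were wider, with a median of 894 bp around the score of the fourth peak of the run and 1085 bp around that of the second, so each width was also set beside those of list peaks whose score lay within 10% of its own. The second peak of the run was narrow for its score. At 928 bp it was wider than only 7.40% of the 527 peaks of similar score. The sixth was wide for its score, and at 1406 bp it exceeded 94.97% of 855 such peaks (median 1025 bp). The third peak and the fourth were on the narrow side as well, wider than 18.3% and 15.5% of theirs.

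The first peak of the run and the fifth exceeded 75.04% and 55.7% of the peaks of similar score in width. Outside the run, the peak before it exceeded 72.2%, the first peak after it 29.8%, and the pair at the end 73.9% and 74.9%. The 2 extremes of width for a given score thus both lay within the run, at its second and sixth peaks.

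**Figure D2:**
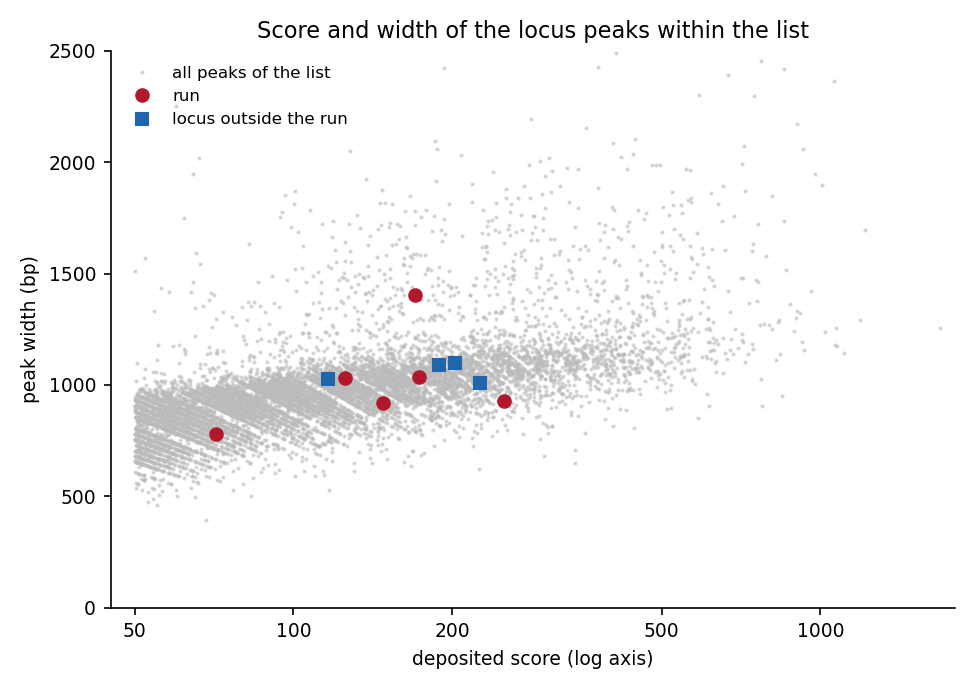
Deposited score (log axis) and width (bp) of the peaks of the list (grey), the run (red circles) and the other 4 locus peaks (blue squares); 17 of the 10870 peaks are wider than the 2500 bp axis and are not drawn. The red point at a score of 170.24 and 1406 bp stands above most of the grey points of similar score, and the one at 251.23 and 928 bp stands below most of them.

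The adjoining 700 kb held 3 c-Fos peaks before the interval and 4 after it, against a median of 3 over windows of that length on chromosome 2. Of these 7, 4 scored below the list's median. The nearest peak before the interval (chr2:44381610-44382525) scored 72.51 and lay 218 kb outside it, and the nearest after it (chr2:45436204-45437100) scored 75.43 and lay 137 kb outside. Both scored below every locus peak except the fourth of the run. The other 3 after the interval scored 164.99, 86.53 and 91.88. Counted to the nearest locus peak, the distances between centres were 394 kb before and 334 kb after. The 10 peaks therefore occupied 327 kb with a stretch longer than that on either side. Further before the interval lay a pair of peaks with scores of 105.71 and 223.51, and ahead of that pair came 4.32 Mb without a peak, the second longest such distance on chromosome 2.

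The interval held 14.3 peaks per Mb (exact Poisson 95% interval 6.85 to 26.3, for counting error alone), against 5.06 per Mb over the span of chromosome 2 and 4.52 on the median autosome. Outside the run the density was 5.93 per Mb, 1.17 times that of chromosome 2, from 4 peaks. Of the 10 peaks, 6 lay in the run for which the interval was chosen. A high density over the whole interval and a lower one outside the run therefore follow from that choice. The Poisson interval takes no account of the choice, so setting it beside the other densities is no test. The density outside also depends on where the limits were drawn, and no Poisson interval was computed for it. Windows of 700 kb were also placed every 100 kb along the chromosomes. On chromosome 2, 138 of 1784 windows (7.74%) held 10 peaks or more, and on chromosomes 1 to 19 and X together 1618 of 25475 did (6.35%). A typical window held far fewer, with a median of 2 peaks over all chromosomes, and the fullest held 24. Neighbouring windows overlap, so these shares describe the list and are no test.

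**Figure D3:**
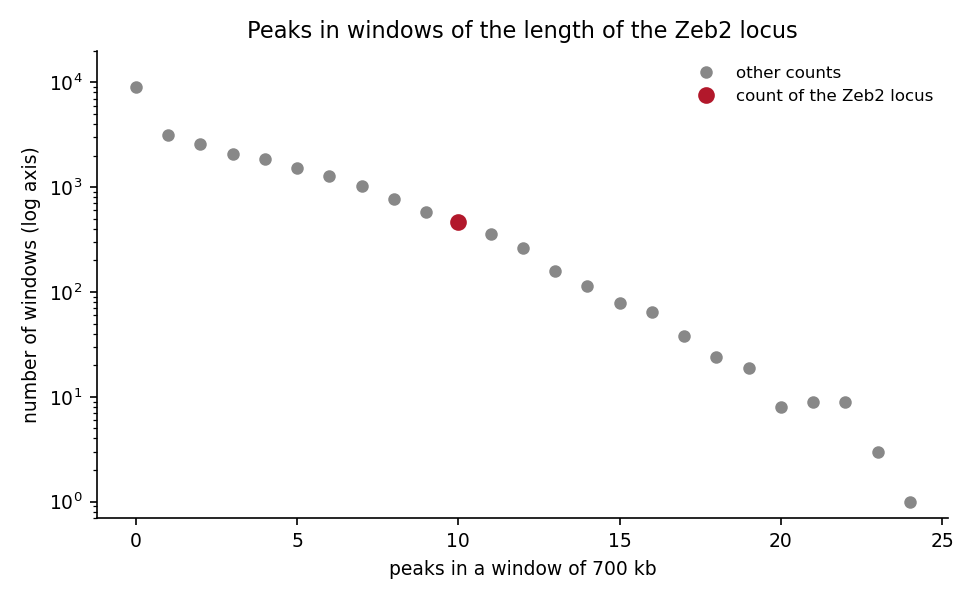
Number of 700 kb windows (log axis), placed every 100 kb on chromosomes 1 to 19 and X, by the number of c-Fos peaks in them, with the count of the Zeb2 locus in red. Windows with 10 peaks or more make up 6.35% of all, and the counts reach 24.

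On chromosome 2 the run of the Zeb2 locus had the most peaks. The chromosome held 19 runs of at least 3 peaks and 9 of at least 4, and the other 8 of those 9 had 4 peaks each. The nearest other run of at least 3 began at 52825021, 7.99 Mb away, and held 3 peaks. Over chromosomes 1 to 19 and X, 14 runs had at least 5 peaks, and among these the Zeb2 run had rank 5 by length and rank 5 by median score, counted from the highest. Its median score was above that of 9 of the other 13 runs.

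The order of the runs differed between their lowest and their highest peaks. The lowest score of the Zeb2 run, 71.26, was above the lowest of 11 of the other 13 runs. Its highest, 251.23, was above the highest of only 5 of them, and 7 of the 13 contained a peak over 500.

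By the shortest stretch between peak edges, its peaks stood further apart than those of most other runs. Spacing defined the runs, and a run with more peaks has more stretches to take a minimum from, so this is a description only. The shortest stretch between the edges of neighbouring peaks was 2.52 kb, the third largest such minimum among the 14. In 11 of the other 13 runs at least 1 pair of peaks had edges less than 2 kb apart. The 2 other runs of 6 peaks were of this kind. In the one on chromosome 15 (76020119 to 76044449) the closest edges were 0.868 kb apart, and in the one on chromosome 3 (108562211 to 108585146) 0.619 kb.

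These 2 runs of equal number were the ones most like that of the Zeb2 locus by the count of peaks. Their lengths, 24.3 kb on chromosome 15 and 22.9 kb on chromosome 3, were close to its 25.9 kb. Median distances between centres were 3.66 and 3.51 kb, against 4.65 kb. The scores differed as well. On chromosome 15 they ran from 94.05 to 861.62 with a median of 278, and on chromosome 3 from 53.68 to 233.21 with a median of 96.5, so that the Zeb2 run, with a median of 159, lay between them. Median widths were 1099 bp on chromosome 15 and 968 bp on chromosome 3, against 981 bp. None of the 3 runs was checked against repeated sequence.

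**Figure D4:**
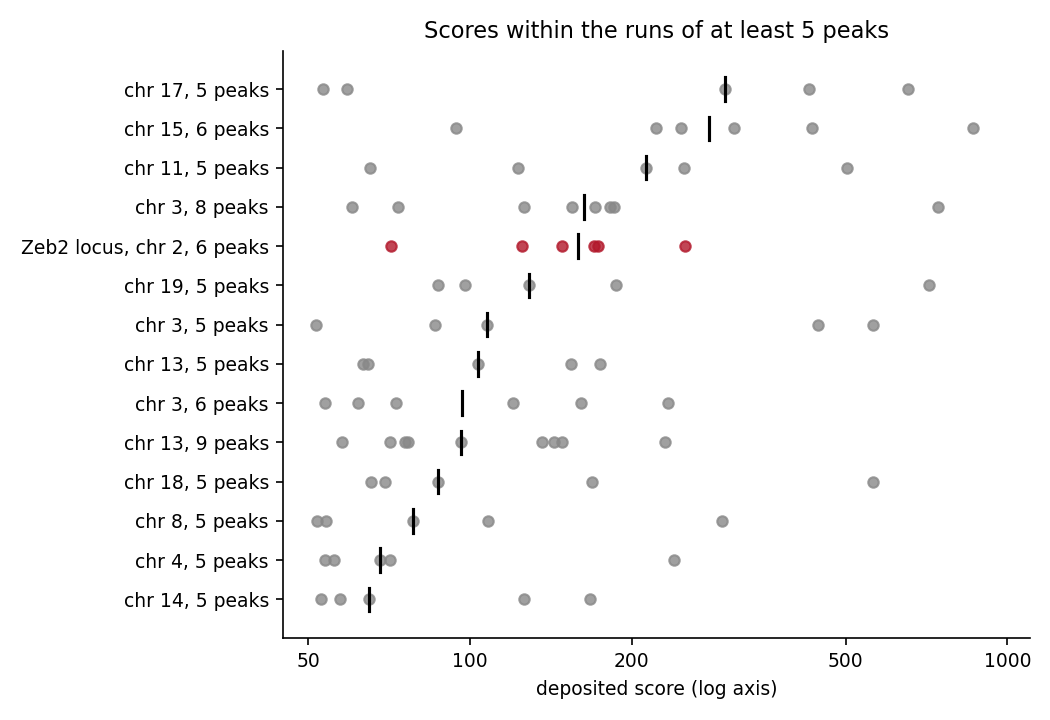
Deposited scores (log axis) of the single peaks in each of the 14 runs of at least 5 c-Fos peaks, ordered by the median score (black bar), with the run of the Zeb2 locus in red. The red points lie between 71.26 and 251.23, and 7 of the other 13 runs contain a peak over 500.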

How the data were processed

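The deposited file used here is the peak list of the c-Fos ChIP library. It gives each peak's sequence name, start, end, name and score, and the score is the authors' value, on a scale that the file does not name. Per the submitters' processing notes, mm9, MACS 1.4.1 and CASAVA 1.8.2 were used, with no role stated. The sources used here give no aligner, read filter or peak threshold, and do not say how the input library was used. Starts were converted to 1-based positions. Samples were grouped by the antibody in the labels.

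Centres, widths, distances, runs (centres within 10 kb), windows and medians were computed with Python 3.11.15, numpy 2.4.6 and pandas 2.3.3, the Poisson interval with scipy 1.17.1 and the figures with matplotlib 3.10.9. Run detection was tested on simulated positions. No significance test was made, since there is 1 ChIP library and peaks are not replicates. Every peak of the locus was named, and the other runs named were those of 6 peaks. The locus and the comparisons were chosen with earlier results of these data known. Searches of the mm9 sequence and a planned list of epithelial-mesenchymal genes were not run, because the reference at hand is GRCm38.p6. Alternatives kept only scores of 100 or more, dropped the widest 5% of the list, joined peaks with edges within 2 kb, or used other limits of the locus and other run distances.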

Additional observations from a re-analysis of the deposited data

How the results depend on the processing

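All 44 recomputed values stayed within 1.5 times the reported count or within the interval of the reported value, and 18 of them were identical to it. These intervals are wide, being order-statistic intervals over 10 peaks or fewer, the range of the 5 distances, or a Poisson interval, so this shows little of stability. The interval held 9 peaks at a score of at least 100, and 9 without the widest 5% of peaks, which removed the sixth peak of the run. In each case the run kept 5 peaks. Joining peaks with edges within 2 kb changed nothing in the locus. The run had 5 peaks with centres within 5 kb, 6 within 20 kb and 7 within 50 kb, where the peak before it was included. Its median distance ranged from 4.13 to 6.48 kb and its median score from 148 to 170. Moving both limits of the locus by 100 kb left 10 peaks, at 20.0 per Mb when narrowed and 11.1 when widened. The lowest score in the list was 50.01, so any sites scoring lower cannot be counted. Depth is also unknown. No paired analysis was possible because there is a single c-Fos ChIP sample.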
